A study of Mus musculus with 12 samples.

Results

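Lysosomes digest macromolecules with acid hydrolases, and a rotary proton pump keeps their lumen acidic. The set described here joins both functions: 35 genes, taken from a list of named lysosomal proteins and pump subunits, out of 24888 gene entries with 24341 distinct symbols in each library. All 35 symbols were found, each at a single locus. They comprised 8 cathepsins, 10 other hydrolases and hydrolase cofactors, 4 membrane proteins, 2 transcription factors of the lysosomal programme and 11 subunits of the proton pump. Mouse adipocytes grown in culture had been sequenced as 12 RNA libraries, 2 for each of 6 groups. C57BL/6 preadipocytes from inguinal white fat, wild type (WT) or carrying an ATF7 knockout (KO), became beige adipocytes under rosiglitazone, a PPARγ agonist, and white adipocytes in its absence. C3H10t1/2 cells, a mouse mesenchymal line, were differentiated with rosiglitazone into beige adipocytes either as controls or overexpressing ATF7, a transcription factor of the ATF2 family.

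Cathepsins cut proteins, glycosidases such as β-glucuronidase and α-mannosidase strip sugars, and lysosomal acid lipase frees fatty acids and cholesterol from lipids brought in by endocytosis or autophagy. The vacuolar ATPase consists of a V0 sector, which carries protons through the membrane, and a V1 sector, which hydrolyses ATP on the cytosolic side. TFEB and TFE3 enter the nucleus when mTORC1 at the lysosome is inactive and bind E-box elements in many lysosomal promoters. Macrophages, which live among adipocytes in fat, are rich in lysosomal hydrolases.

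Values are FPKM, fragment counts scaled to the length of the gene and the size of the library, as the authors deposited them. The depth of the libraries is unknown, so no counting interval could be given. Differences were tested with limma on log2(FPKM + 1), and a gene was called where the Benjamini-Hochberg adjusted p over all genes tested was under 0.05. On this scale the change of a low gene is understated. Nothing in the labels says that the replicates came from separate cultures or animals, so the p-values measure only the spread between these libraries. Replicates correlated with Pearson r between 0.984 and 0.992 across genes. Adipocyte markers were present in every group, Adipoq at 274 to 1195 FPKM and Fabp4 at 1940 to 9779 FPKM, and Ucp1, the uncoupling protein of thermogenic fat, was listed at 0 in all 4 white libraries and stood at 0.820 to 51.6 FPKM in the 8 beige ones. Atf7 itself was measured at 7.26 and 7.94 FPKM in beige cultures labelled KO against 7.80 and 7.83 FPKM in WT, and at 6.88 and 7.73 against 9.10 and 7.10 FPKM in white. It was therefore not clearly lower in the libraries labelled KO. Since FPKM are summed over a gene, a deleted exon might not be seen, and these groups are called KO-labelled throughout. The C3H10t1/2 libraries overexpressing ATF7 had 41.2 and 39.1 FPKM of Atf7 and their controls 8.52 and 9.09 FPKM.

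Promoter sequences were taken from RefSeq, build GRCm38.p6, in windows from 250 bases before to 50 after the start, and 29 of the 35 members were matched. The E-box CACGTG, which reads the same on both strands, stood in the windows of 11 of the 29 (37.9%) and in 8.09% of those of all 27025 symbols. The 11 were Lamp1, Mcoln1, Ctsa, Ctsd, Ctsl, Gaa, Gla, Glb1, Atp6v0b, Atp6v0d1 and Atp6v1a. The E-box with T before and A after stood in 6 of 29 windows (20.7%), against 1.12% of all. The CLEAR element, that is the E-box with GT before and AC after, stood in 0 of 29 and in 0.37% of all. Only exact matches to these letters were counted, so windows with a near match are not among them. The windows of longer motifs are also counted under the shorter ones. The stretches below, 120 bases each and written 5′ to 3′ on the strand of the gene, show the E-boxes in capitals. They end at the base before the gene's first start and were picked to set members with E-boxes from different roles beside Man2b1, which had none in its window.

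Mcoln1, chr8:3500399-3500518, plus strand: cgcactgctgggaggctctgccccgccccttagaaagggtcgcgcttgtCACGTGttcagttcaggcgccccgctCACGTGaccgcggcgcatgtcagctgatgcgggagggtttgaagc
Lamp1, chr8:13159015-13159134, plus strand: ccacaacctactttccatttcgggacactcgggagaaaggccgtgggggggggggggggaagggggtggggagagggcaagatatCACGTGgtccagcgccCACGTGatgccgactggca
Ctsd, chr7:142387871-142387990, minus strand: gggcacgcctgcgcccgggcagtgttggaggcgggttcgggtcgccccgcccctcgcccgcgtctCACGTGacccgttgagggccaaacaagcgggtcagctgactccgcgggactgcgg
Glb1, chr9:114400958-114401077, plus strand: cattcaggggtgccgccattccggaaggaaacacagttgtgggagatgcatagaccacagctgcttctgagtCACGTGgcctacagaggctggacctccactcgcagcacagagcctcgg
Atp6v0b, chr4:117887330-117887449, minus strand: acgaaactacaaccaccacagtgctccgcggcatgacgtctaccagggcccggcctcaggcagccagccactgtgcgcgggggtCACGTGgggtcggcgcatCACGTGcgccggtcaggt
Man2b1, chr8:85083149-85083268, plus strand: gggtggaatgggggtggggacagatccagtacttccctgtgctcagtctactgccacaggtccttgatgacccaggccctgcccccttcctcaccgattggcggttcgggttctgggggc

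Mcoln1, Lamp1 and Atp6v0b had 2 E-boxes in these stretches, and Ctsd and Glb1 had 1. The whole windows of Lamp1 and Ctsd held 4 and 2. Their stretches end further upstream, because the RefSeq start lies 26 and 43 bases downstream of the start of the deposited locus. The other E-box of Ctsd is missing for another reason: it stood 245 bases before the RefSeq start, upstream of the stretch. The windows with an E-box belonged to genes that moved in both directions between beige and white cultures: Atp6v0b rose, Ctsd and Glb1 fell, and Lamp1 passed the threshold in neither genotype on the deposited scale, as given below.

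Ctsd, the aspartic protease cathepsin D, was the most abundant in every primary culture, at 324 to 535 FPKM, followed by Psap, the precursor of the saposins that help glycosidases reach their lipids, at 241 to 316 FPKM. Ctsd alone made up 18.7% to 23.6% of the members' summed FPKM in the 4 primary groups. Cathepsins B and L and the membrane glycoprotein Lamp1 came next, all above 100 FPKM in all 8 primary libraries. Ctsb was above Ctsl in 7 of the 8 and below it in 1 KO-labelled beige library, and the values of Ctsl and Lamp1 overlapped, so their order is not settled. At the low end stood Tfeb at 2.32 to 2.73 FPKM, Gla, α-galactosidase A, at 2.27 to 3.67 FPKM, and Neu1, a sialidase, at 3.01 to 4.20 FPKM. Atp6v0d2, a d subunit that is best known from osteoclasts and macrophages, was lowest, at 0.467 to 1.19 FPKM, beside 27.9 to 35.9 FPKM for its ubiquitous counterpart Atp6v0d1. Summed over the 35 genes, the level was 1699 to 1926 FPKM in the 4 primary beige libraries and 2107 to 2291 FPKM in the 4 white ones, without overlap.

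**Figure D1:**
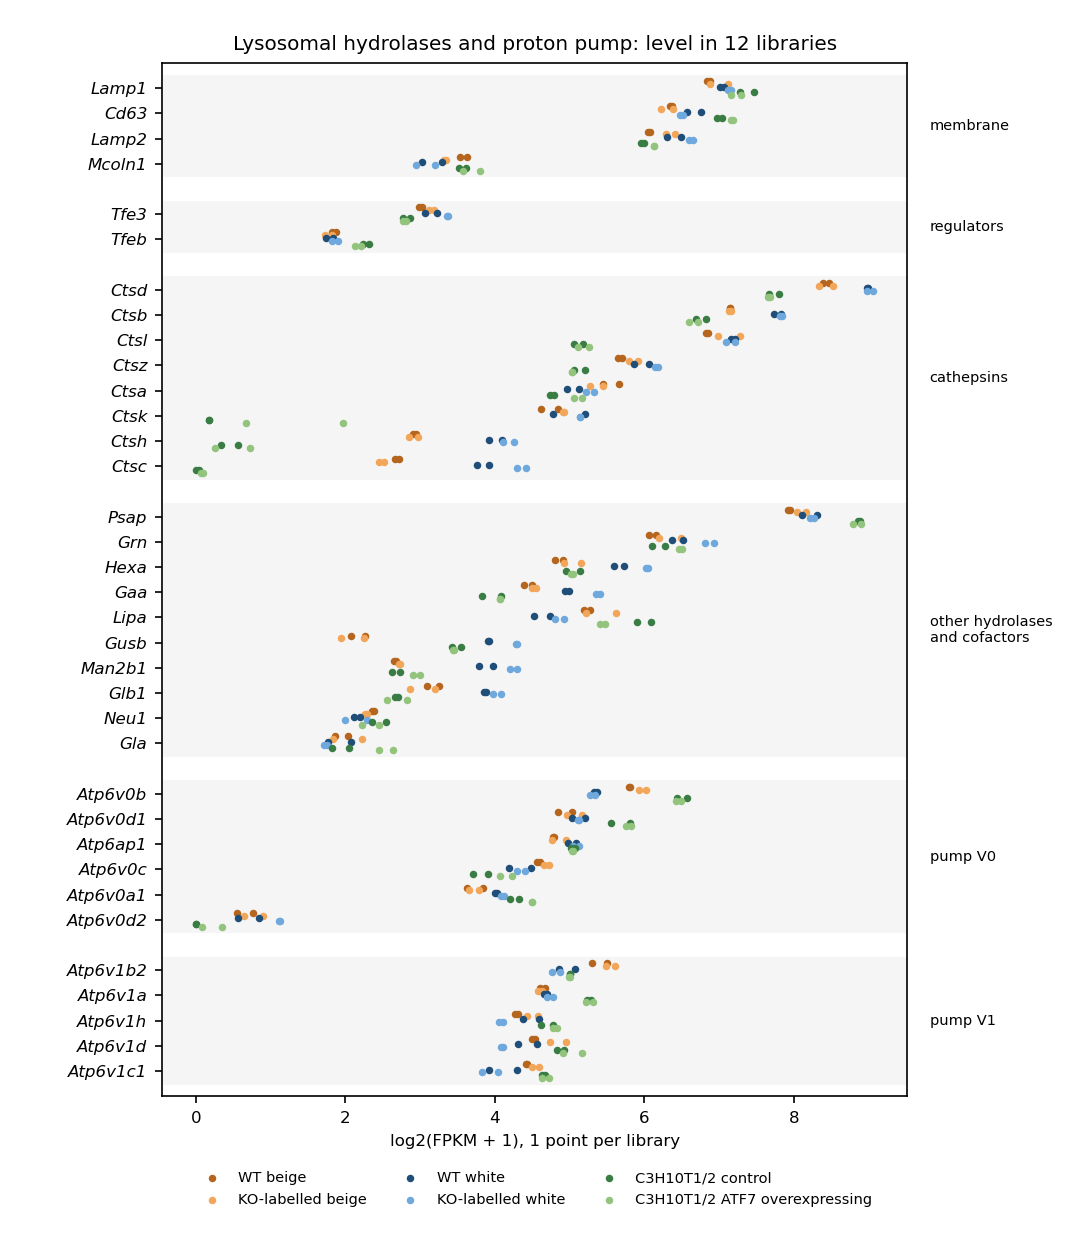
Level of the 35 members on the log2(FPKM + 1) scale, 1 point per library, coloured by group and ordered by role and mean. Ctsd and Psap lie at the right end, and Ctsc, Ctsh, Ctsk and Atp6v0d2 are lower in C3H10t1/2 cells than in every primary library.

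In C3H10t1/2 cells the order was different. Psap led there, at 444 to 477 FPKM, with Ctsd at 201 to 223 FPKM, and Psap made up 25.8% of the members' sum in the controls. The cysteine proteases Ctsc, Ctsh and Ctsk, at 4.46 to 35.9 FPKM in primary cultures, stood between 0 and 0.648 FPKM in the 4 C3H10t1/2 libraries, except for Ctsk at 2.91 FPKM in replicate 1 of the ATF7-overexpressing cells. Atp6v0d2 was listed at 0 in both controls and stood at 0.275 and 0.0614 FPKM in the overexpressing libraries. Ctsl stood at 32.3 to 37.2 FPKM, against 112 to 155 FPKM in the primary cultures. Several pump subunits lay the other way: Atp6v0b was at 84.8 to 93.7 FPKM and Atp6v1a at 36.4 to 38.7 FPKM, above all 8 primary libraries, at 37.7 to 64.0 and 23.0 to 26.4 FPKM. The cell line and the primary cultures were fitted apart, so these levels are set side by side without a test.

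Most hydrolases that differed between beige and white cultures were lower in beige. Of the 18 hydrolases and cofactors, 12 fell and 2 rose in WT, with a median log2 difference of -0.44, and 11 fell and 1 rose in KO-labelled cultures, with a median of -0.56. Among the 11 pump members, 2 rose and 1 fell in WT, and 6 rose and 1 fell in KO-labelled cultures. The pump counts depended on the scaling of the libraries: they were 2 higher and 3 lower in WT and 5 and 4 in KO-labelled cultures after quantile normalization, 2 and 4 in WT and 5 and 5 in KO-labelled cultures with small RNA genes left out of the totals, and 4 and 0 in WT and 6 and 1 in KO-labelled cultures after median centring. Over all 35, 5 rose and 15 fell in WT, and 7 rose and 13 fell in KO-labelled cultures. This contrast was large across the transcriptome: 53.7% of the 11294 genes tested were called in WT (21.6% higher, 32.1% lower) and 61.0% in KO-labelled cultures (26.6% higher, 34.3% lower). The members' median was -0.25 in WT and -0.19 in KO-labelled cultures, beside -0.10 and -0.06 for all genes tested. 13 members fell in both genotypes and 3 rose in both, 4 were called in WT and not in KO-labelled cultures, 4 the other way round, and 11 in neither. None was called in opposite directions, and none of the 35 was called in the test of the difference between genotypes given further on. Beige libraries lay below white ones without overlap in 21 members in WT and 20 in KO-labelled cultures, beside 46.2% and 44.7% of all genes, and above them in 8 and 9, beside 31.3% and 36.2%. In bulk RNA, fewer cells of a type and less RNA per cell cannot be told apart.

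**Figure D2:**
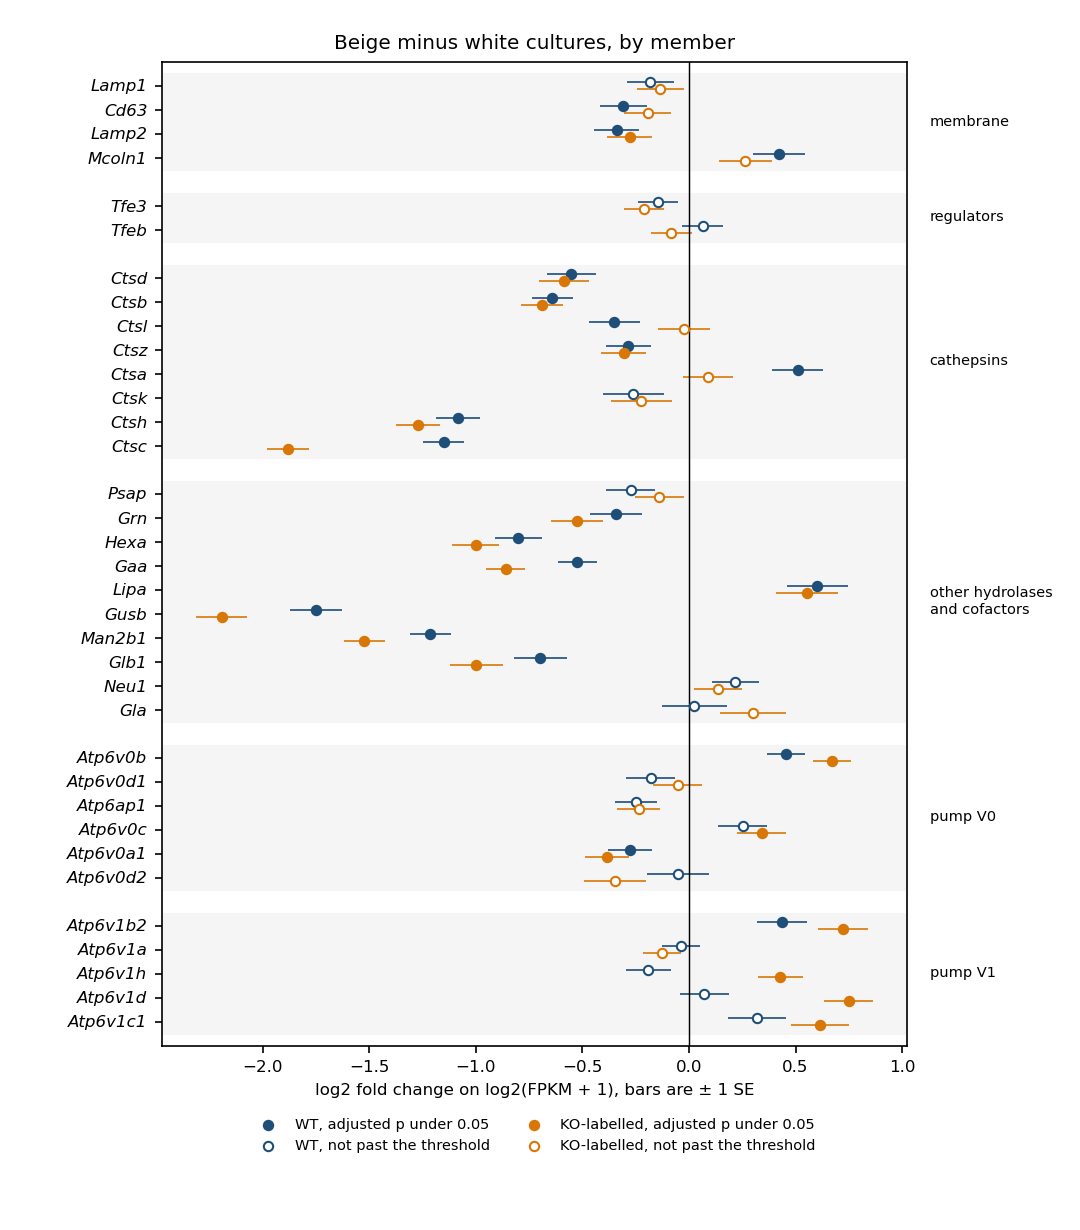
Log2 difference of beige minus white cultures for each member, on log2(FPKM + 1), with bars of ± 1 SE. WT is in blue and KO-labelled in orange, and filled points passed an adjusted p of 0.05. The hydrolases lie mostly left of 0, with Gusb, Man2b1, Ctsc and Ctsh farthest, and called pump subunits lie on both sides.

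Gusb, β-glucuronidase (mm10 chr5:129989021-130002828), fell most among the members in both genotypes. It stood at 3.21 and 3.81 FPKM in the WT beige libraries against 14.2 and 14.0 FPKM in WT white, and at 2.85 and 3.76 against 18.5 and 18.6 FPKM in the KO-labelled ones. The beige libraries were all far below the white ones. The mean was 4.03-fold lower in WT beige (log2 difference -1.75, SE 0.12, adjusted p = 6.82e-06) and 5.62-fold lower in KO-labelled beige (log2 difference -2.19, SE 0.12, adjusted p = 1.33e-06). Man2b1, lysosomal α-mannosidase (chr8:85083269-85098739), stood at 5.41 and 5.29 FPKM in WT beige and 12.8 and 14.7 FPKM in WT white. Its KO-labelled values were 5.62 and 5.60 against 17.4 and 18.6 FPKM. It fell by 1.21 on the log2 scale in WT (SE 0.10, adjusted p = 1.4e-05) and by 1.52 in KO-labelled cultures (SE 0.10, adjusted p = 2.64e-06). Hexa, Glb1 and Gaa, which cleave gangliosides, β-galactosides and glycogen, fell in both genotypes as well. The mean FPKM of Hexa was 1.77-fold lower in WT beige and 2.02-fold lower in KO-labelled beige, that of Glb1 1.70-fold and 2.12-fold, and that of Gaa 1.46-fold and 1.85-fold. Grn, the progranulin gene, fell by 0.34 in WT and by 0.53 in KO-labelled cultures.

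Lipa, lysosomal acid lipase (chr19:34492316-34527474), went the other way. It stood at 35.6 and 37.6 FPKM in WT beige against 25.8 and 22.0 FPKM in WT white, and at 48.1 and 36.2 against 29.5 and 26.8 FPKM in the KO-labelled cultures, with every beige library above every white one. It rose by 0.60 on the log2 scale in WT (SE 0.14, adjusted p = 0.00702) and by 0.55 in KO-labelled cultures (SE 0.14, adjusted p = 0.00899). Neu1, Gla and Psap passed in neither genotype, at log2 differences between -0.27 and 0.30. Psap was called lower in both after quantile normalization (log2 differences -0.48 and -0.47) and without small RNA genes (-0.43 and -0.35). After quantile normalization Neu1 was called higher in both, and Gla in KO-labelled cultures.

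Ctsc and Ctsh, the exopeptidases cathepsin C and H, fell most among the cathepsins. Ctsc (chr7:88278093-88310875) stood at 5.36 and 5.57 FPKM in WT beige and 14.2 and 12.6 FPKM in WT white, and at 4.46 and 4.70 against 18.7 and 20.4 FPKM in the KO-labelled libraries. Its log2 difference was -1.15 in WT (SE 0.10, adjusted p = 1.92e-05) and -1.88 in KO-labelled cultures (SE 0.10, adjusted p = 9.76e-07). Ctsh (chr9:90054267-90076095) stood at 6.73 and 6.48 FPKM in WT beige against 16.2 and 14.1 FPKM in white, and at 6.87 and 6.24 against 16.3 and 18.2 FPKM in KO-labelled cultures. It fell by 1.08 and by 1.27 on the log2 scale (SE 0.10 in both, adjusted p = 4.16e-05 and 1.14e-05). For both genes every beige library was below every white one by more than the spread between replicates. The abundant proteases Ctsb and Ctsd also fell. Ctsb stood at 139 to 142 FPKM in the 4 beige libraries and 212 to 229 FPKM in the 4 white ones, and Ctsd at 324 to 368 and 503 to 535 FPKM. Their log2 differences in WT were -0.64 and -0.55. Ctsz fell in both genotypes, by 0.28 and by 0.31, and Ctsl in WT, by 0.35, while its difference in KO-labelled cultures was -0.02, but -0.48 after quantile normalization and -0.23 without small RNA genes, both called. Ctsk, the collagen-cleaving protease known from osteoclasts, had log2 differences of -0.26 and -0.22 and passed in neither, but was called lower in both without small RNA genes.

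Ctsa, the carboxypeptidase that holds Glb1 and Neu1 in a stable complex, was the exception among the cathepsins. The WT beige libraries were at 49.7 and 42.4 FPKM and the WT white ones at 33.8 and 30.2, without overlap, and the gene rose by 0.51 on the log2 scale (SE 0.12, adjusted p = 0.00603). The KO-labelled values overlapped, the beige at 42.5 and 37.9 FPKM and the white at 36.2 and 39.3, with a log2 difference of 0.09 (adjusted p = 0.542). The difference between genotypes was -0.42 (SE 0.17) and was not called (adjusted p = 0.26).

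Of the membrane proteins, Lamp2, which takes part in chaperone-mediated autophagy, fell in both genotypes, by 0.34 in WT and by 0.28 in KO-labelled cultures. Cd63, a tetraspanin of late endosomes, fell by 0.31 in WT and its difference in KO-labelled cultures was -0.19, not past the threshold. Mcoln1, a lysosomal cation channel, rose in WT by 0.42 (adjusted p = 0.0182) and its difference in KO-labelled cultures was 0.26 (adjusted p = 0.0921). Lamp1 passed in neither, at -0.18 and -0.13, but was called lower in both after quantile normalization (-0.56 and -0.58) and without small RNA genes (-0.33 and -0.34). The transcription factors Tfeb and Tfe3 were called in neither genotype, at 2.32 to 2.73 and 6.93 to 9.32 FPKM over the 8 primary libraries, with log2 differences between -0.21 and 0.06. Without small RNA genes Tfe3 was called lower in both. Tfeb was called higher in WT after quantile normalization and lower in KO-labelled cultures without small RNA genes.

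Among the pump members, Atp6v0b and Atp6v1b2 rose in both genotypes. Atp6v0b, a proteolipid subunit of the membrane ring (chr4:117884330-117887329), stood at 54.5 and 54.8 FPKM in WT beige and 39.0 and 40.1 FPKM in WT white, and at 59.9 and 64.0 against 39.3 and 37.7 FPKM in KO-labelled cultures. All 4 beige libraries were above all 4 white ones. It rose by 0.46 on the log2 scale in WT (SE 0.09, adjusted p = 0.00268) and by 0.67 in KO-labelled cultures (SE 0.09, adjusted p = 0.000221). Atp6v1b2, the B subunit of the ATP-hydrolysing head (chr8:69088736-69113717), stood at 44.3 and 38.3 FPKM in WT beige against 28.1 and 32.5 FPKM in white, and at 43.7 and 47.6 against 28.4 and 26.2 FPKM in KO-labelled cultures. It rose by 0.43 (SE 0.12, adjusted p = 0.0127) and by 0.72 (SE 0.12, adjusted p = 0.000682), again without overlap of beige and white libraries.

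Another 3 V1 subunits, Atp6v1d, Atp6v1c1 and Atp6v1h, were called in KO-labelled cultures and not in WT. Atp6v1d, of the central rotor stalk (chr12:78842982-78861638), stood at 25.7 and 29.8 FPKM in KO-labelled beige against 15.9 and 16.3 FPKM in KO-labelled white, and rose by 0.75 (SE 0.12, adjusted p = 0.000513). In WT its values overlapped, the beige at 21.5 and 22.2 FPKM and the white at 18.9 and 22.7. Atp6v1c1, a subunit at the peripheral stalks (chr15:38661904-38692444), stood at 23.2 and 21.6 FPKM in KO-labelled beige and 15.4 and 13.2 FPKM in white, and rose by 0.61 (SE 0.13, adjusted p = 0.00383). In WT it stood at 20.6 and 20.4 against 14.2 and 18.7 FPKM, a log2 difference of 0.32 (adjusted p = 0.0754). Atp6v1h, which regulates the coupling of ATP hydrolysis to transport, rose by 0.43 in KO-labelled cultures and had a log2 difference of -0.19 in WT. The fifth, the catalytic subunit Atp6v1a, was nearly level on the deposited scale, at 23.0 to 26.4 FPKM over all 8 libraries. In KO-labelled cultures it was called lower after quantile normalization and without small RNA genes, with log2 differences down to -0.33. In the V0 sector, Atp6v0c rose by 0.34 in KO-labelled cultures and Atp6v0a1, which anchors the sector and shapes its proton path, fell by 0.28 in WT and by 0.38 in KO-labelled cultures. The accessory subunit Atp6ap1 had log2 differences of -0.25 and -0.24 and passed in neither. It was called lower in both after quantile normalization, without small RNA genes and with all 12 libraries in 1 fit.

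Several of these calls rest on few libraries. Of the 20 members called in WT, 11 kept their call in every alternative run. The other 9 (Lamp2, Cd63, Mcoln1, Ctsa, Ctsl, Ctsz, Grn, Atp6v0a1 and Atp6v1b2) each lost it without at least 1 of the 4 libraries, and adjusted p over the alternatives reached 0.314, for Atp6v0a1. Without WT beige replicate 1 the members that rose were 2 and without WT beige replicate 2 those that fell were 9. In KO-labelled cultures 14 of 20 kept it. Lamp2, Ctsz, Lipa, Atp6v0a1, Atp6v0c and Atp6v1h each lost it without at least 1 library, and adjusted p over the alternatives reached 0.358, for Atp6v0c. Without KO-labelled white replicate 2 the members that rose were 4. Of the 15 members not called, 11 in WT and 14 in KO-labelled cultures were called under at least 1 alternative, so a member counted as called in 1 genotype or in neither is no firmer than these calls. Scaling took calls away as well. In WT, Lamp2, Cd63, Ctsl, Ctsz, Grn and Atp6v0a1 lost theirs after median centring, Ctsa after quantile normalization and Mcoln1 without small RNA genes. In KO-labelled cultures, Lamp2 and Ctsz lost theirs after median centring. Lipa and Atp6v0c lost theirs there after quantile normalization and without small RNA genes. None of the called members turned its direction. The scaling of the libraries moved the balance of calls over all genes: calls in the higher direction made up 40.2% in WT and 43.7% in KO-labelled cultures as deposited, 28.3% and 30.4% with small RNA genes left out of the totals, 50.9% and 52.8% after quantile normalization, and 51.4% and 52.8% after median centring. Leaving out small RNA genes moved the median of all genes from -0.10 to -0.22 in WT and from -0.06 to -0.24 in KO-labelled cultures. The median of the 18 hydrolases and cofactors stayed below 0 under each scaling, between -0.67 and -0.33 in WT and between -0.98 and -0.45 in KO-labelled cultures. That of the 11 pump members was -0.04 in WT, -0.11 without small RNA genes, and turned to 0.04 and 0.07 after quantile normalization and median centring. It was 0.34 in KO-labelled cultures and above 0 under each scaling. The median of the 5 V1 members was 0.07 in WT, -0.07 without small RNA genes, and 0.61 in KO-labelled cultures, where it stayed above 0.

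Markers of other cells moved with the same contrast. Over all genes tested, 21.6% were called higher and 32.1% lower in WT beige, and 26.6% and 34.3% in KO-labelled beige. The summed level of 25 macrophage markers was 40.2 to 41.1 FPKM in WT beige and 623 to 704 FPKM in WT white, and 41.4 to 51.9 FPKM in KO-labelled beige and 939 to 995 FPKM in KO-labelled white. Of 24 markers tested, 23 fell in WT beige and 24 in KO-labelled beige. Lyz2, macrophage lysozyme, stood at 5.39 to 9.47 FPKM in the 4 beige libraries and 268 to 337 FPKM in the 4 white ones, and Adgre1, the F4/80 antigen, at 1.01 to 1.42 and 18.4 to 30.7 FPKM. None of the 25 was listed at 0 in both libraries of a primary group. Markers of stromal progenitors moved likewise, with 12 of 12 tested lower in beige in both genotypes, and 9 of 9 thermogenic genes were higher. Of 12 adipocyte markers 7 were higher and 2 lower in WT beige, and 10 higher and 2 lower in KO-labelled beige. In the C3H10t1/2 libraries the macrophage sum was 1.91 to 2.49 FPKM, 14 of 25 markers were listed at 0 in both controls and 11 in both overexpressing libraries, and Cd163 was at 0 in all 4. In those libraries Ctsc and Ctsh were at most 0.648 FPKM, whereas Gusb stood at 9.76 to 10.7 FPKM, Man2b1 at 5.16 to 7.03 FPKM and Ctsd at 201 to 223 FPKM. The part of these other cells in the difference between beige and white members was not tested.

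**Figure D3:**
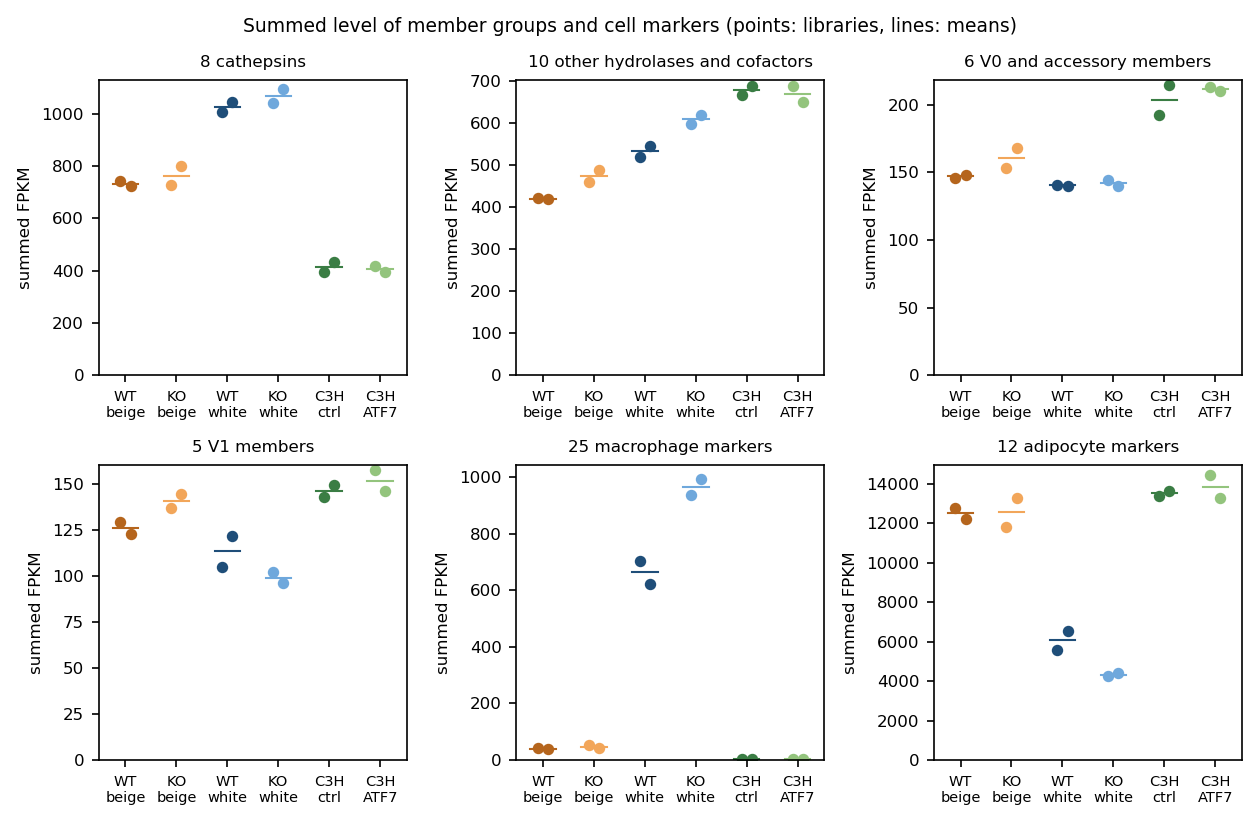
Summed FPKM of 4 groups of members and of the macrophage and adipocyte markers in each library, with points for libraries and lines for the means of 2. Cathepsins and macrophage markers are higher in white than in beige primary cultures, V1 members are not, and macrophage markers are near 0 in C3H10t1/2 cells. Psap is the largest part of the 10 other hydrolases and cofactors in every group.

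Other genes of the pathway were counted in the same contrast. For all genes tested the shares were 21.6% higher and 32.1% lower in WT, and 26.6% and 34.3% in KO-labelled cultures. Of 32 other lysosomal hydrolases, 2 rose and 22 fell in WT (median -0.61), and 1 rose and 25 fell in KO-labelled cultures (median -0.67). The iduronate sulfatase Ids was 2.66 against 6.52 FPKM on average in WT beige and white, a log2 difference of -1.04 (adjusted p = 2.18e-05), and the asparaginyl protease Lgmn 16.4 against 41.7 FPKM (log2 difference -1.29, adjusted p = 3.37e-05). Ctss and Acp5, which are also in the macrophage and osteoclast marker lists, fell by 1.85 and by 1.51. Of 10 genes that deliver these enzymes, mostly by the mannose 6-phosphate route, 0 rose and 5 fell in WT and 2 rose and 5 fell in KO-labelled cultures. Igf2r, the large mannose 6-phosphate receptor, fell by 0.75 in WT and by 1.02 in KO-labelled cultures, and Gnptab, which makes the mannose 6-phosphate tag, by 0.87 and by 1.04.

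Of the 17 other pump genes 11 were tested. In WT, 5 rose and 1 fell, and in KO-labelled cultures 5 rose and 0 fell, and without small RNA genes 4 and 2, and 4 and 3. The small subunit Atp6v0e was 85.1 against 63.3 FPKM in WT beige and white (log2 difference 0.42, adjusted p = 0.00572) and 93.2 against 56.5 FPKM in the KO-labelled cultures (log2 difference 0.71, adjusted p = 0.000224). Atp6v1e1, of the peripheral stalks, rose by 0.47 and by 0.91. The median of these 11 was 0.31 in WT, and 0.13 in KO-labelled cultures, where it was -0.06 without small RNA genes. Among 15 tested genes of the TFEB relatives and of mTORC1 signalling at the lysosome, 7 rose and 3 fell in WT, and 9 rose and 2 fell in KO-labelled cultures, against 4 and 3, and 5 and 3, without small RNA genes. Mtor itself was 11.4 against 5.04 FPKM in WT (log2 difference 1.04, adjusted p = 3.6e-05). Of 21 autophagy genes, 8 rose and 2 fell in WT, and 10 rose and 3 fell in KO-labelled cultures, against 6 and 4, and 7 and 5, without small RNA genes. The cargo receptor Sqstm1 had the lowest p, at 143 against 67.9 FPKM in WT (log2 difference 1.07, adjusted p = 6.26e-05). Of 20 other membrane and lipid-transfer genes, 3 rose and 6 fell in WT (15% and 30%), and 4 rose and 6 fell in KO-labelled cultures (20% and 30%). These shares were near those of all genes tested, 21.6% and 32.1% in WT and 26.6% and 34.3% in KO-labelled cultures. Cd68 is in this list and also in the macrophage marker list. The balance of this list turned with the scaling. In WT it was 6 higher and 3 lower after median centring, and 2 and 10 without small RNA genes. In KO-labelled cultures it was 6 and 5, and 3 and 12. The cholesterol exporter Npc1 was among those that rose, by 0.94 and by 1.07.

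The comparison of genotypes asked whether the members differ between KO-labelled and WT cultures of the same kind. It shares its libraries with the beige and white contrasts, so its values are given for themselves. In beige cultures 0 members were called by limma, beside 0.151% of the 11294 genes tested (0.0531% higher), and 3 (8.57%) had an unadjusted p under 0.05, all higher, beside 10.3% of all genes. These were Atp6v1d, Lamp2 and Ctsl. Atp6v1d stood at 25.7 and 29.8 FPKM in KO-labelled beige against 21.5 and 22.2 FPKM in WT beige, a log2 difference of 0.33 (SE 0.12, adjusted p = 0.41). Lamp2 stood at 77.3 and 83.9 against 65.1 and 66.4 FPKM (log2 difference 0.29, SE 0.10, adjusted p = 0.42). Ctsl stood at 125 and 155 against 112 and 114 FPKM (log2 difference 0.29, SE 0.12, adjusted p = 0.466). In each of the 3 the groups did not overlap, but neither did those of 27.1% of all genes in that direction. Over the 35 members, 15 were higher without overlap, 3 were lower without overlap, beside 14.1% of all genes, and 17 overlapped, and the median was 0.11 beside 0.04 for all genes. In the 6 lists of other pathway genes 0 were called in beige.

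In white cultures 1 member was called, beside 1.89% of all genes tested (1.27% higher). Ctsc stood at 18.7 and 20.4 FPKM in KO-labelled white against 14.2 and 12.6 FPKM in WT white, without overlap, a log2 difference of 0.52 (SE 0.10, adjusted p = 0.0407). The call was lost in 6 of 14 alternatives, among them without WT white replicate 2 and without either KO-labelled white library, and adjusted p over the alternatives reached 0.311. Gaa was next, at 39.9 and 41.6 against 30.8 and 29.7 FPKM (log2 difference 0.42, SE 0.09, adjusted p = 0.0638). Atp6v1h was lower, at 16.3 and 15.6 against 19.8 and 23.1 FPKM (log2 difference -0.40, SE 0.11, adjusted p = 0.095). By role, the median was 0.19 for the 18 hydrolases and cofactors and -0.18 for the 5 V1 members, beside 0.03 for all genes, and both kept their sign under each scaling. By limma 9 members (25.7%) had an unadjusted p under 0.05, 7 higher and 2 lower, beside 19.9% of all genes. 16 members were higher without overlap, beside 32.1% of all genes, 4 were lower, beside 21.2%, and 15 overlapped. Here too the macrophage markers moved with the comparison: 8 of 24 rose in KO-labelled white and 0 fell, with a median of 0.70, and Cd68 stood at 33.6 and 33.2 against 26.3 and 17.5 FPKM. In the 6 lists of other pathway genes 1 was called: Tfec, a TFEB relative of the myeloid lineage, rose from a mean of 0.802 to 2.00 FPKM (log2 difference 0.75, adjusted p = 0.0435). Adipocyte markers moved the other way: 12 of 12 were below 0, with 2 called lower and a median of -0.38, and their sum was 4267 to 4384 FPKM in KO-labelled white against 5584 to 6535 FPKM in WT white. The part of either in the difference of Ctsc was not tested. Over all genes, 67.1% of the calls were in the higher direction, and 50.4% and 52.8% after quantile normalization and median centring.

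**Figure D4:**
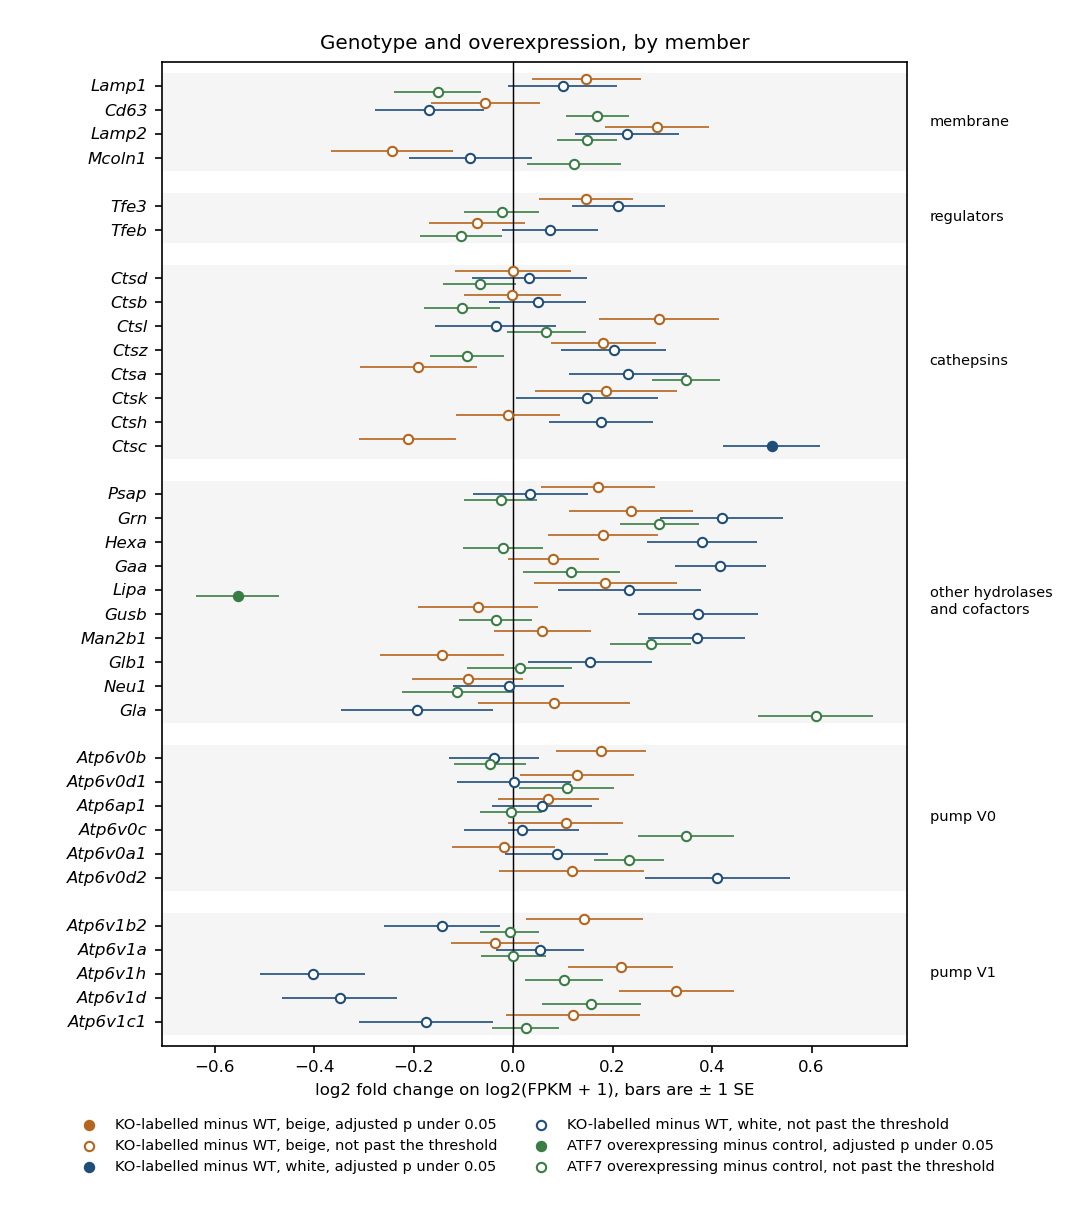
Log2 difference for each member of KO-labelled minus WT in beige (brown) and white (blue) cultures and of ATF7-overexpressing minus control C3H10t1/2 cells (green), with bars of ± 1 SE. Filled points passed an adjusted p of 0.05: Ctsc in white cultures and Lipa in C3H10t1/2 cells. Genes with no green point were not tested in that line.

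The difference between the genotype effects in beige and white cultures was tested as an interaction. By limma 0 members were called, beside 0.292% of all genes, and 6 (17.1%) had an unadjusted p under 0.05, 2 positive and 4 negative, beside 16.8% of all genes. The lowest p belonged to Ctsc, at -0.73 (SE 0.14, adjusted p = 0.105), whose genotype difference was -0.21 in beige and 0.52 in white. Atp6v1d, at 0.68 (SE 0.16, adjusted p = 0.151), and Atp6v1h, at 0.62 (SE 0.15, adjusted p = 0.151), were opposite in sign. Their genotype differences were 0.33 and 0.22 in beige and -0.35 and -0.40 in white. A difference between genotypes in the response of the V1 subunits was thus not shown by this test, although 4 of the 5 were called in KO-labelled cultures and 1 in WT.

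In C3H10t1/2 cells overexpressing ATF7, 1 of the 31 members tested was called, beside 1.49% of the 9981 genes tested (1.06% lower). The 4 not tested, Ctsc, Ctsh, Ctsk and Atp6v0d2, did not reach 1 FPKM in 2 libraries. Lipa stood at 43.6 and 41.5 FPKM in the overexpressing libraries against 67.4 and 58.7 FPKM in the controls, without overlap, and fell by 0.55 on the log2 scale (SE 0.08, adjusted p = 0.0393). In the same comparison 6 of 8 thermogenic markers fell, with a median of -1.52 over the 8, and the part of that change in the Lipa difference was not tested. This fit had only 2 residual degrees of freedom. The call was lost in 8 of 14 alternatives, among them without control replicate 1 and without either overexpressing library, and adjusted p over the alternatives reached 0.17. In the primary cultures the log2 difference of Lipa between KO-labelled and WT was 0.19 in beige and 0.23 in white, called in neither.

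Gla stood at 5.25 and 4.45 FPKM against 2.53 and 3.16 FPKM (log2 difference 0.61, SE 0.12, adjusted p = 0.0729), and was called without control replicate 2 and without small RNA genes. Ctsa stood at 34.9 and 32.5 against 25.7 and 26.8 FPKM (log2 difference 0.35, SE 0.07, adjusted p = 0.0797), and was called without small RNA genes. In both the overexpressing libraries were above the controls. By limma 9 members (29%) had an unadjusted p under 0.05, 8 higher and 1 lower, beside 17.2% of all genes. Of the 31 members, 8 were higher without overlap, beside 20.3% of all genes, 4 were lower, beside 28.8%, and 19 overlapped. The median was 0.01, beside -0.02 for all genes, and 0.06 for the 10 pump members tested. In the 6 lists of other pathway genes 0 were called. Over all genes, 28.9% of the calls were in the higher direction, and 44.1% without small RNA genes.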

How the data were processed

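RNA was extracted with TRIZOL, depleted of ribosomal RNA, made into directional libraries and read as 36 bases from both ends, per the labels' protocols. The deposited FPKM values, 1 per gene and library, were made by the authors. They were placed on mm10 (GRCm38), per the submitters' processing notes. The annotation, like the aligner and the quantifier, is not given in the sources used here. Starts counted from 0 had 1 added. The members and gene lists were chosen with earlier results of these data known.

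limma 3.58.1 (eBayes with trend, R 4.3.3) was fitted to log2(FPKM + 1), two-sided, with the p-value adjusted over all genes tested. A gene was tested where 2 or more libraries of the fit had 1 FPKM or more. The 8 primary libraries shared 1 fit (11294 genes, 4 residual degrees of freedom), so the contrasts share libraries and spread. The 4 C3H10t1/2 libraries had their own (9981 genes, 2 residual degrees of freedom). The script was tested on simulated data. All members may be named. From each pathway list up to 4 genes a comparison with the lowest p may be, besides fixed cell markers. Every library's value is printed for the 4 called members with the largest rise and the 4 with the largest fall, or for the 3 of lowest p. Alternatives covered pseudocounts, filters, scaling, variance trend, a replicate term, all libraries together and each library left out.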

Additional observations from a re-analysis of the deposited data

How the results depend on the processing

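Between beige and white cultures, median centring gave 8 members higher and 9 lower in WT. In KO-labelled cultures 21 were lower after quantile normalization and 24 without small RNA genes. The balance of calls over all genes also moved under these settings, as given above. The shares of all genes called in each direction under them are not given here, so whether these member counts exceed those shares cannot be read from them. With at least 5 FPKM required, 4041 of all genes were called in WT, against 6069, and 4544 in KO-labelled cultures, against 6887. That filter also leaves fewer genes to test, so these counts are not shares of the same total. With 1 library left out, the lone sample being assumed to vary like the others, 2 to 5 members were higher and 9 to 13 lower in WT, and 4 to 7 were higher in KO-labelled cultures. For KO-labelled against WT white, 0 members were higher with pseudocounts of 0.1 and 0.5 and without the filter, 2 with quantile normalization and without small RNA genes, and 3 with all 12 libraries in 1 fit. In those 3 settings 1 was lower. Over all genes these settings called 54, 105, 122, 387, 328 and 642, against 213, and 23 to 277 with 1 library left out, when 0 to 1 members were higher. In beige all 12 libraries gave 26 calls, against 17, and leaving out 1 gave 5 to 20. The interaction called 33 genes, 20 with a pseudocount of 0.1, 11 at 5 FPKM, 116 with all 12 libraries, when 1 member (Ctsc) was lower, and 16 to 43 with 1 left out. For overexpression, Lipa was not called (0 members lower) without the filter, with quantile normalization, without the variance trend or with all 12 libraries, and 2 members were higher without small RNA genes. The genes called were 149, 22 without the filter and 91 without the trend. With 1 library left out they were 17 to 138, with 0 to 1 members in either direction. Same-numbered libraries deviated together weakly at most, with correlations between -0.096 and 0.151 within the fits. The 2 highest were between WT and KO-labelled libraries of the same kind, 0.134 in beige and 0.151 in white. With 2 libraries a group, such values cannot settle whether the numbers pair libraries. With them as a replicate block, 27 genes were called for KO-labelled against WT beige and 88 for overexpression, with 0 members lower. The causes were not tested except where stated. Without counts, the precision of the lowest members, such as Atp6v0d2 and Tfeb, is unknown.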
